A study of Mus musculus with 20 samples.

Results

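Motor neurons of the spinal cord and of the cranial nerves share a core of neuronal genes and differ in the transcription factors that set where their axons grow and which muscles or ganglia they supply. The genes described here are 9 such downstream factors, given as a list by name: Mnx1, Isl2, Lhx4, Tbx20, Tlx2, Gata3, Gata2, Ebf2 and Otx2. They are 9 of the 24421 genes in the count tables, and all 9 were among the 14792 genes that passed the filter on low counts. None of them is one of the factors that name the 2 lines of cells.

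The cells were neurons differentiated from mouse embryonic stem cells into a spinal type, labelled NIL, and a cranial type, labelled NIP. The names are used in the field for sets of transcription factors expressed together: NIL for Neurog2, Isl1 and Lhx3, and NIP for Neurog2, Isl1 and Phox2a. RNA of day 2 cultures was sequenced at 0 h without cyclopiazonic acid (CPA), and at 12 h and 36 h without CPA or with 20 µM CPA, an inhibitor of the SERCA calcium pumps that stresses the endoplasmic reticulum. Each of the 10 groups had 2 libraries, numbered 1 and 2, 20 in all. The times follow the sample titles, whereas the treatment text of the labels gives 0, 6 and 12 h. The labels do not say whether the 2 libraries of a group came from separate cultures, so a p-value here speaks of the spread among these libraries alone, which may be technical. NIL and NIP cultures are made by transcription factors forced on in stem cells and stand for the types they are named after only as far as that goes. In bulk RNA a lower level in a group can be fewer cells of a type or less RNA per cell, and these cannot be told apart.

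Isl1 and Lhx3 are LIM homeodomain proteins that bind DNA together in spinal motor neurons, and Phox2a is a homeodomain protein of cranial motor neurons that innervate branchial and visceral targets and the eye muscles. Mnx1 (also called Hb9) is a homeodomain repressor that keeps postmitotic spinal motor neurons from taking on interneuron features. Isl2 is the close relative of Isl1, and Lhx4 that of Lhx3. Tbx20 is a T-box factor of branchial and visceral motor neurons of the hindbrain, also known from the heart. Tlx2 is a homeobox gene of enteric and other autonomic neurons. Gata2 and Gata3 are zinc finger factors of V2b interneurons in the spinal cord and of visceral and serotonergic neurons in the hindbrain, and both also act in blood and trophoblast. Ebf2 belongs to a family of helix-loop-helix factors of newly born neurons, and Otx2 is the homeobox gene of the forebrain and midbrain.

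The promoters of Mnx1 and Tbx20 are shown because the genes went in opposite directions between NIL and NIP, and because the factors that differ between the lines are homeodomain proteins, whose core motif is TAATTA or TAATTG. Each sequence is the 250 bases before the RefSeq transcript start (GRCm38.p6), read 5′ to 3′ on the gene's strand, with a match to TAATTG on either strand in capitals. Mnx1 is read from chr5:29478471-29478720 (minus strand, 66.4% G and C) and Tbx20 from chr9:24774304-24774553 (minus strand, 68.8% G and C).
Mnx1: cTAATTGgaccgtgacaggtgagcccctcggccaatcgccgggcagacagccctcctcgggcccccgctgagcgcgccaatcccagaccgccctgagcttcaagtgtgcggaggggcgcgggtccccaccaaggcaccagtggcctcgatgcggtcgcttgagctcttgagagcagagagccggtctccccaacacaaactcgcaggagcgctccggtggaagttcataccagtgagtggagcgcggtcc
Tbx20: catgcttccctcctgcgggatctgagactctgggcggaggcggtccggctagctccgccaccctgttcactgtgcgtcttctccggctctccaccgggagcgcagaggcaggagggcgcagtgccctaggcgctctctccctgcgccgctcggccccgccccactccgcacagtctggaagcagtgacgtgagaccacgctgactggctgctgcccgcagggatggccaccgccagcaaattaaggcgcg
The Mnx1 window held 1 match to TAATTG and the Tbx20 window 0 matches to the motifs searched. Each motif was searched on both strands, and matches of different motifs were counted apart even where they overlapped. TAATTG was found in 7.17% of the 32851 promoter windows of all genes, each likewise the 250 bases before the start. The palindrome TAATTA was found in 4.84%, the E-box CAGATG in 14.4%, the palindromic E-box CAGCTG in 13% and the GATA core AGATAA in 9.99%. Of the 11 windows of the 7 members with an entry, 2 held TAATTA, 3 held TAATTG, 1 held CAGATG, 0 held CAGCTG and 2 held AGATAA. Apart from the Mnx1 window the members' windows with a match all belonged to Otx2, which has 4 entries. These are matches of letters, not binding sites. Tlx2 and Ebf2 had no entry.

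Gene counts per library ran from 7996454 to 30321152 with a median of 19.8 M, lower among the libraries numbered 2 (13.2 M) than among those numbered 1 (22.6 M). The ribosomal precursor gene Rn45s took 5.18% to 38.6% of them and was highest in untreated NIP 36 h library 1 and in CPA-treated NIL 36 h library 2. Levels are given as CPM, the counts of a gene for each 1 M counts of its library, with library sizes scaled by TMM. On this scale 3 counts came to 0.0956 to 0.385 CPM depending on the library, so lower values rest on a handful of reads. The labels were checked on the factors that name the lines: Lhx3 was at 115 to 166 CPM in the 10 NIL libraries and at 0 to 0.326 CPM in the 10 NIP libraries, and Phox2a was at 0.0839 to 3.31 CPM in NIL and 56.9 to 322 CPM in NIP. Counts do not separate an inserted factor from the cell's own copy. All 6 motor neuron markers (Chat, Slc18a3, Slc5a7, Isl1, Prph and Mnx1, itself a member) were detected in both lines, with a summed level of 251 to 941 CPM in NIL and 824 to 1269 CPM in NIP. At 0 h 1 of the 6 was higher in NIP, Prph (3.23 ± 0.21), and 2 were lower, Mnx1 and Chat (1 and 5 with the replicate number as a block), with a median log2 difference of -0.92.

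NIL and NIP libraries were first compared at each time and treatment, which asks which factors differ between the spinal and the cranial type. Mnx1, Isl2, Lhx4, Gata3, Ebf2 and Otx2 were lower in NIP in all 5 comparisons, Tlx2 was higher in all 5, and Tbx20 was higher in the 3 comparisons without CPA. Gata2 passed in none by edgeR without the replicate block. By edgeR's quasi-likelihood test (adjusted p under 0.05, Benjamini-Hochberg over all tested genes), 8 of 9 members passed at 0 h, where 12.5% of all tested genes passed. The counts were 8 of 9 in untreated libraries at 12 h and at 36 h (12.0% and 11.6% of all genes), and 7 of 9 with CPA at both times (10.2% and 16.9%). At 0 h 6 members were lower and 2 higher in NIP, beside 4.61% of all genes lower and 7.86% higher. The median log2 difference over the 9 members was -3.64 at 0 h, beside -0.00054 over all tested genes.

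**Figure D1:**
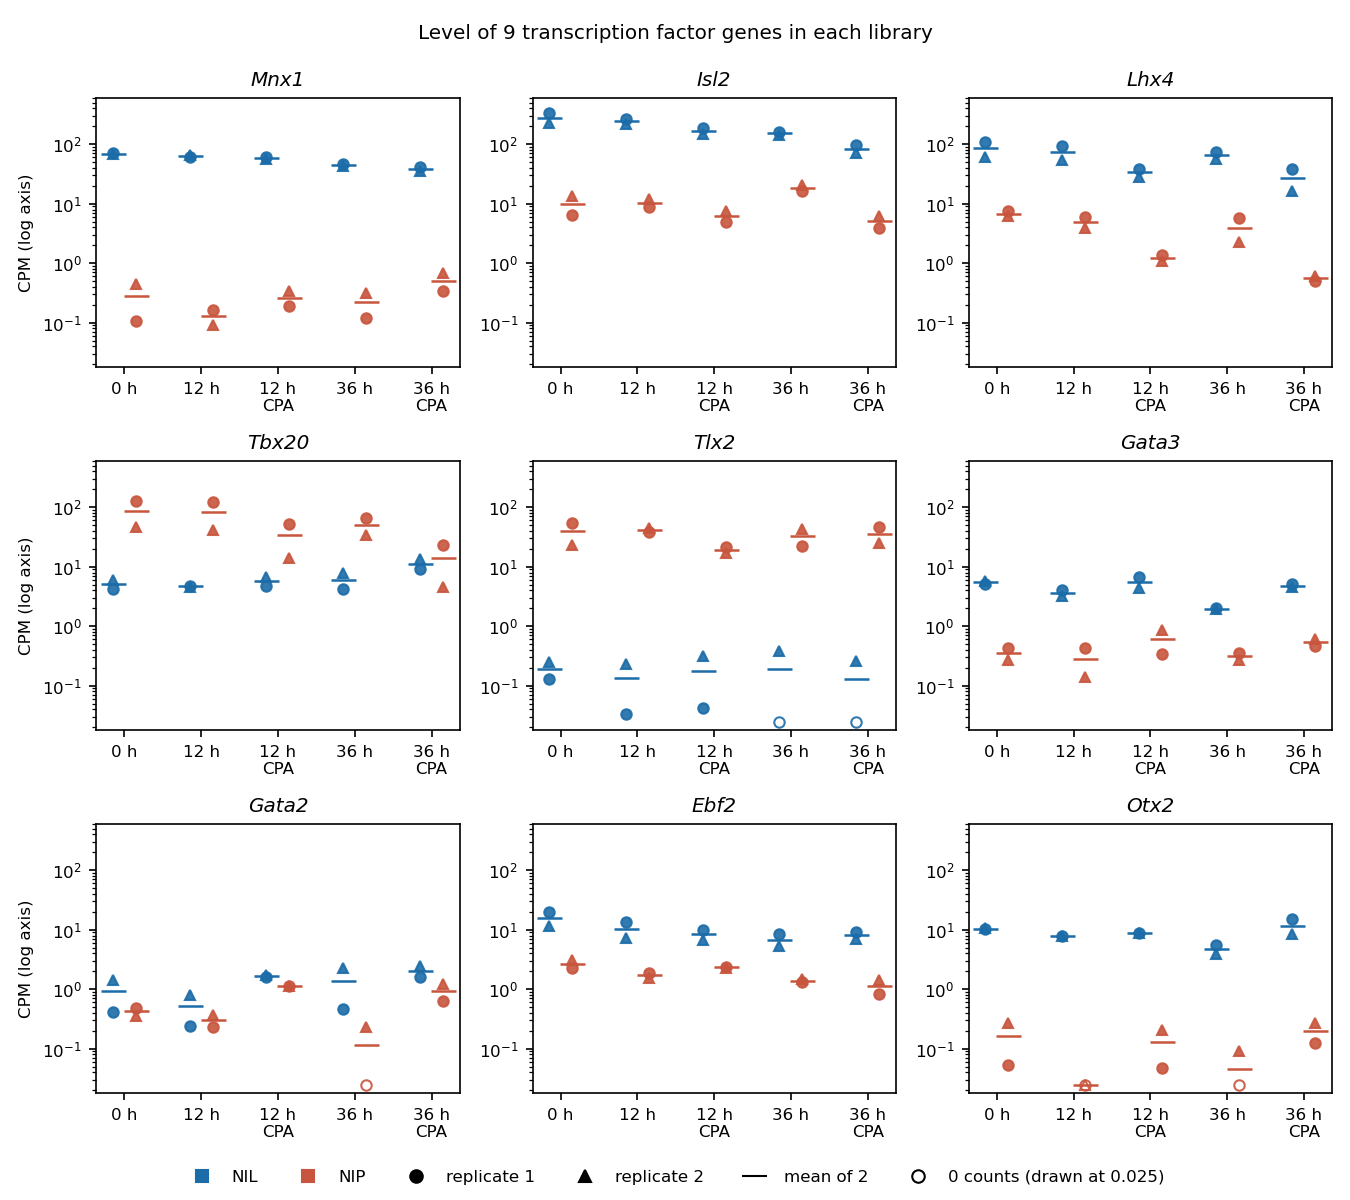
CPM of each of the 9 genes (log axis) in each of the 20 libraries, by time and CPA; blue is NIL and red NIP, circles are libraries numbered 1, triangles libraries numbered 2, dashes the mean of 2, and open points have 0 counts. The lines overlap for Tbx20 and Gata2 and lie apart for the other genes. How often the lines lie apart over all tested genes was not computed.

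Taken per kilobase of exon, which lets genes be set side by side, the order of levels at 0 h in NIL was Isl2 (128 CPM per kb), Mnx1 (30.9), Lhx4 (14.9), Otx2 (2.47), Ebf2 (2.27), Gata3 (1.39), Tbx20 (0.422), Gata2 (0.172) and Tlx2 (0.121). In NIP it was Tlx2 (24.8 CPM per kb), Tbx20 (7.3), Isl2 (4.5), Lhx4 (1.19), Ebf2 (0.386), Mnx1 (0.124), Gata3 (0.0886), Gata2 (0.0787) and Otx2 (0.0385). The leading genes of NIL were thus the homeodomain genes of spinal motor neurons, and those of NIP were Tlx2 and Tbx20, followed by Isl2.

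Mnx1 (chr5:29473034-29478470, minus strand, GRCm38) set the lines farthest apart at 0 h among the members that were higher in NIL. The NIL libraries 1 and 2 had 70.7 and 68.4 CPM at 0 h, 60.8 and 65.7 at 12 h, 61.4 and 56.0 at 12 h with CPA, 46.0 and 43.6 at 36 h, and 41.9 and 35.8 at 36 h with CPA. The NIP libraries had 0.108 and 0.451 CPM at 0 h, 0.164 and 0.0929 at 12 h, 0.192 and 0.336 at 12 h with CPA, 0.119 and 0.321 at 36 h, and 0.339 and 0.674 at 36 h with CPA. All 10 NIP libraries together held 52 Mnx1 counts, so levels there sit near the counting floor, and the groups did not overlap at any time. The log2 difference, NIP minus NIL, was -8.11 ± 0.42 at 0 h (± is the standard error here and below, 2 libraries a group; edgeR adjusted p = 2.79e-07), -8.82 ± 0.43 at 12 h and -7.40 ± 0.42 at 36 h. With CPA it was -7.74 ± 0.40 at 12 h and -6.32 ± 0.37 at 36 h (edgeR adjusted p = 6.02e-07).

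Isl2 (chr9:55538672-55546180, plus strand), the relative of the Isl1 shared by both lines, was the member with the highest level per kilobase in NIL at 0 h. NIL libraries 1 and 2 had 331 and 230.1 CPM at 0 h, 265 and 222 at 12 h, 186 and 149.7 at 12 h with CPA, 164 and 142 at 36 h, and 96.6 and 70.1 at 36 h with CPA. NIP libraries had 6.46 and 13.3 CPM at 0 h, 8.87 and 12.1 at 12 h, 4.85 and 7.63 at 12 h with CPA, 16.1 and 20.4 at 36 h, and 3.89 and 6.26 at 36 h with CPA. NIP retained measurable Isl2 in every library, and the highest NIP value lay below the lowest NIL value. Isl2 was lower in NIP by a log2 difference of -4.85 ± 0.39 at 0 h (edgeR adjusted p = 6.18e-06), -4.54 ± 0.39 at 12 h and -3.06 ± 0.36 at 36 h without CPA, and by -4.75 ± 0.39 and -4.05 ± 0.39 with CPA at 12 h and 36 h. Isl1 itself had a log2 difference of -0.48 ± 0.35 at 0 h (edgeR adjusted p = 0.443, or 0.0488 with the replicate number as a block).

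Lhx4 (chr1:155698031-155751684, minus strand), the relative of Lhx3, was present in NIL and low in NIP. NIL libraries 1 and 2 had 110.5 and 60.4 CPM at 0 h, 94.3 and 54.3 at 12 h, 39.0 and 28.4 at 12 h with CPA, 74.9 and 56.0 at 36 h, and 37.9 and 16.2 at 36 h with CPA. NIP libraries had 7.43 and 6.23 CPM at 0 h, 6.08 and 3.86 at 12 h, 1.39 and 1.09 at 12 h with CPA, 5.72 and 2.25 at 36 h, and 0.508 and 0.606 at 36 h with CPA. Library 2 was below library 1 in 9 of the 10 groups, the exception being NIP at 36 h with CPA. Lhx4 was lower in NIP by -3.64 ± 0.50 at 0 h (edgeR adjusted p = 0.000313), -3.90 ± 0.51 at 12 h, -4.12 ± 0.53 at 36 h, -4.76 ± 0.55 at 12 h with CPA and -5.61 ± 0.61 at 36 h with CPA, all on the log2 scale.

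Tbx20 (chr9:24718138-24774303, minus strand) was higher in NIP without CPA, and its 2 libraries stood far apart in every NIP group. NIP libraries 1 and 2 had 128.9 and 46.4 CPM at 0 h, 124.9 and 40.7 at 12 h, 53.0 and 14.1 at 12 h with CPA, 65.2 and 34.4 at 36 h, and 23.5 and 4.51 at 36 h with CPA. NIL libraries had 4.21 and 5.93 CPM at 0 h, 4.69 and 4.64 at 12 h, 4.83 and 6.84 at 12 h with CPA, 4.31 and 7.88 at 36 h, and 9.07 and 13.5 at 36 h with CPA. In each NIP group library 1 was above library 2, and at 36 h with CPA the lines overlapped. Tbx20 was higher in NIP by a log2 difference of 4.13 ± 0.87 at 0 h (edgeR adjusted p = 0.00648), 4.15 ± 0.88 at 12 h (0.00698) and 3.06 ± 0.84 at 36 h (0.0307). With CPA the difference was 2.53 ± 0.82 at 12 h (edgeR adjusted p = 0.0696; DESeq2 adjusted p = 0.00871) and 0.34 ± 0.79 at 36 h (edgeR adjusted p = 0.803). The Tbx20 calls rest on few libraries. At 0 h the adjusted p was 0.0831 without NIL library 1 and 0.0547 without NIP library 1, at 12 h it was 0.0688 without NIL library 1, 0.0614 without NIL library 2 and 0.0589 without NIP library 1, and at 36 h it was 0.0541 to 0.158 without any 1 of the 4 libraries. The summed level of 8 heart markers (Nkx2-5, Tbx5, Hand2, Myh6, Myh7, Tnnt2, Actc1 and Mef2c) was 4.94 to 42.6 CPM in NIP and 3.36 to 8.37 CPM in NIL, none of them at 0 in either line. Hand2 is also on the list of cranial, visceral motor and autonomic genes used below. Only 3 of the 8 were tested, and 1 was higher in NIP in every comparison of the lines. At 0 h the median log2 difference was 1.22. The median was -0.145 and -0.273 at 12 h and 36 h without CPA, and -0.544 and -1.05 with CPA. The part of the heart markers in the Tbx20 difference was not tested.

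Tlx2 (chr6:83068324-83070293, minus strand) was high in every NIP library and near 0 in NIL. NIP libraries 1 and 2 had 55.1 and 23.3 CPM at 0 h, 38.7 and 44.9 at 12 h, 21.3 and 16.8 at 12 h with CPA, 22.3 and 44.0 at 36 h, and 46.7 and 24.6 at 36 h with CPA. NIL libraries had 0.128 and 0.254 CPM at 0 h, 0.034 and 0.232 at 12 h, 0.042 and 0.311 at 12 h with CPA, 0 and 0.389 at 36 h, and 0 and 0.257 at 36 h with CPA. These NIL values stand for 22 counts in 10 libraries, against 6877 counts in NIP. Tlx2 was higher in NIP by a log2 difference of 7.82 ± 0.94 at 0 h (edgeR adjusted p = 0.000112), 8.09 ± 1.00 at 36 h and 6.88 ± 0.93 at 12 h with CPA. The 36 h value rests on 4 NIL counts, all in library 2, and without that library the fitted difference was 12.31, which is no bound because NIL then held 0 counts. With only 3 NIL counts at 12 h without CPA, the NIP to NIL ratio there was 523 (95% counting interval 179 to 2540), and with 2 NIL counts at 36 h with CPA it was 450 (124 to 3720). These intervals cover counting error only.

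**Figure D2:**
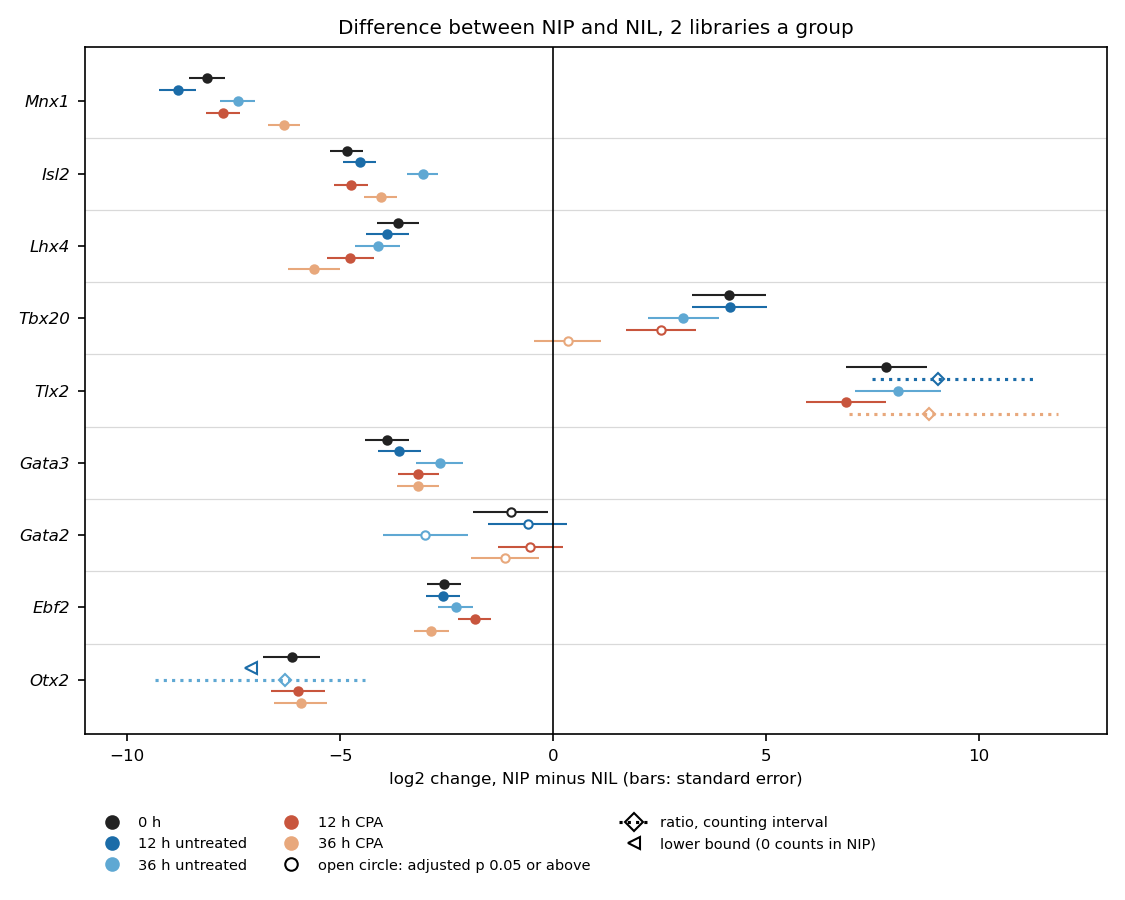
Log2 difference between NIP and NIL for each gene at each time and treatment (x axis, NIP minus NIL; bars are standard errors, 2 libraries a group). Filled circles passed adjusted p 0.05 by edgeR; diamonds with dotted lines are ratios with counting intervals and the triangle a bound, used where a group had 3 counts or fewer. Tlx2 and Tbx20 lie to the right and the other genes to the left, Gata2 with open circles only. Tbx20 at 36 h with CPA lies near 0 (0.34 ± 0.79).

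Gata3 (chr2:9857078-9890034, minus strand) was low in both lines and lower in NIP. NIL libraries 1 and 2 had 5.20 and 5.84 CPM at 0 h, 4.04 and 3.25 at 12 h, 6.67 and 4.42 at 12 h with CPA, 1.99 and 1.95 at 36 h, and 5.14 and 4.49 at 36 h with CPA. NIP libraries had 0.434 and 0.271 CPM at 0 h, 0.427 and 0.139 at 12 h, 0.336 and 0.881 at 12 h with CPA, 0.358 and 0.275 at 36 h, and 0.466 and 0.606 at 36 h with CPA. The lines did not overlap, although Gata3 is also known from hindbrain visceral motor neurons. Gata3 was lower in NIP by -3.90 ± 0.52 at 0 h (edgeR adjusted p = 0.00026), -3.61 ± 0.51 at 12 h, -2.67 ± 0.55 at 36 h (edgeR adjusted p = 0.00594), and by -3.16 ± 0.48 and -3.17 ± 0.49 with CPA at 12 h and 36 h, on the log2 scale. Without NIP library 2 the adjusted p at 36 h was 0.0927. Its exons share 77 bases with 9230102O04Rik on the same strand, which had 1 count in all 20 libraries, and 155 bases with the antisense gene Gm13256, which was not analysed here.

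Gata2 (chr6:88193891-88207032, plus strand) was near the counting floor in both lines. NIL libraries 1 and 2 had 0.414 and 1.44 CPM at 0 h, 0.238 and 0.813 at 12 h, 1.59 and 1.74 at 12 h with CPA, 0.471 and 2.24 at 36 h, and 1.59 and 2.44 at 36 h with CPA. NIP libraries had 0.488 and 0.361 CPM at 0 h, 0.23 and 0.372 at 12 h, 1.15 and 1.13 at 12 h with CPA, 0 and 0.229 at 36 h, and 0.635 and 1.21 at 36 h with CPA. The lines overlapped at 0 h and at 12 h, and library 2 was above library 1 in all 5 NIL groups. The log2 difference was -0.99 ± 0.88 at 0 h (edgeR adjusted p = 0.542), -0.60 ± 0.93 at 12 h, -0.54 ± 0.76 at 12 h with CPA and -1.12 ± 0.80 at 36 h with CPA. At 36 h without CPA it was -3.00 ± 1.00 (edgeR adjusted p = 0.0703, or 0.00866 with the replicate number as a block; DESeq2 adjusted p = 0.0299), resting on 5 NIP counts and 36 NIL counts. The summed level of 11 trophoblast and surface ectoderm markers, a tissue that also uses Gata2 and Gata3, was 59.9 to 460.8 CPM in NIL, with Elf5 and Krt5 at 0, and 12.5 to 112 CPM in NIP, with none at 0. That of 10 blood and endothelium markers was 34.6 to 86.1 CPM in NIL, with Hbb-y at 0, and 24.6 to 73.8 CPM in NIP, with Hbb-y and Hba-x at 0. At 0 h 0 of 6 tested genes of each of these 2 lists passed between the lines by edgeR. With the block 3 and 1 passed, all lower in NIP. The part of these markers in the Gata2 and Gata3 values was not tested.

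Ebf2 (chr14:67233292-67430918, plus strand) was lower in NIP by less than the other members that passed at 0 h. NIL libraries 1 and 2 had 19.7 and 11.8 CPM at 0 h, 13.3 and 7.32 at 12 h, 9.99 and 6.78 at 12 h with CPA, 8.40 and 5.25 at 36 h, and 9.20 and 6.93 at 36 h with CPA. NIP libraries had 2.28 and 3.07 CPM at 0 h, 1.91 and 1.53 at 12 h, 2.40 and 2.26 at 12 h with CPA, 1.31 and 1.47 at 36 h, and 0.846 and 1.41 at 36 h with CPA. NIL library 1 was above NIL library 2 in all 5 groups, and no NIP library reached the NIL values. The log2 difference was -2.57 ± 0.40 at 0 h (edgeR adjusted p = 0.000793), -2.59 ± 0.40 at 12 h, -2.29 ± 0.42 at 36 h, -1.85 ± 0.39 at 12 h with CPA (edgeR adjusted p = 0.00785) and -2.86 ± 0.42 at 36 h with CPA. At 12 h with CPA the adjusted p was 0.0773 without NIL library 1 and 0.0679 without either NIP library. At 36 h with CPA it was 0.055 with the compared libraries alone in the fit. The Ebf2 exons share 424 bases with the antisense gene Gm10860, which was not analysed here.

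Otx2 (chr14:48657677-48673819, minus strand) was detected in every NIL library and nearly absent from NIP. NIL libraries 1 and 2 had 10.2 and 10.7 CPM at 0 h, 7.95 and 7.89 at 12 h, 8.77 and 8.95 at 12 h with CPA, 5.65 and 3.99 at 36 h, and 15.0 and 8.35 at 36 h with CPA. NIP libraries had 0.0543 and 0.271 CPM at 0 h, 0 and 0 at 12 h, 0.048 and 0.21 at 12 h with CPA, 0 and 0.0917 at 36 h, and 0.127 and 0.269 at 36 h with CPA. All 10 NIP libraries held 19 Otx2 counts and the NIL libraries 1598. Otx2 was lower in NIP by -6.14 ± 0.66 at 0 h (edgeR adjusted p = 6.93e-05), -5.99 ± 0.63 at 12 h with CPA and -5.92 ± 0.62 at 36 h with CPA on the log2 scale. At 12 h without CPA it was at least 137-fold lower in NIP, with 302 counts in NIL, 0 in NIP and a floor of 3 counts over the group. At 36 h the NIL to NIP ratio was 78.5 (95% counting interval 21.4 to 652) with 2 NIP counts. The summed level of 13 other forebrain and midbrain progenitor markers (such as Six3 and En1), none at 0 over a line, was 26.9 to 56.9 CPM in NIL and 3.69 to 6.23 CPM in NIP, and that of 14 pluripotent stem cell markers was 48.2 to 757 CPM in NIL and 14.8 to 124.8 CPM in NIP. At 0 h 2 of 8 tested forebrain and midbrain markers and 0 of 14 stem cell markers passed between the lines by edgeR. With the block 3 and 10 passed, and all that passed were lower in NIP. The part of these markers in the Otx2 difference was not tested. Otx2os1, which shares 154 exon bases on the opposite strand, had 7 counts in NIL and 0 in NIP. Gm49154, which shares 168 bases on the same strand, was not analysed here.

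CPA-treated libraries were next compared with untreated libraries of the same line and time, which asks how the factors responded to stress of the endoplasmic reticulum. Lhx4 fell in NIP at 12 h and at 36 h, and Isl2 fell in NIP at 36 h; without the replicate number as a block no member passed in NIL and none rose. The count was 0 of 9 in NIL at 12 h and at 36 h, 1 of 9 in NIP at 12 h and 2 of 9 in NIP at 36 h. Over all tested genes 2.21%, 0.980%, 4.71% and 2.33% passed in these 4 comparisons. At an unadjusted p under 0.05 the edgeR counts were 2 and 4 of 9 in NIL and 3 and 4 of 9 in NIP, beside 13.6%, 17.2%, 17.2% and 13.5% of all genes. By DESeq2 with adjustment they were 0 and 1 of 9 in NIL and 1 and 2 of 9 in NIP, beside 4.79%, 4.81%, 7.78% and 4.74%. With the block, which shares the difference between libraries numbered 1 and 2 across groups, the counts were 1 and 3 in NIL and 2 and 3 in NIP, beside 7.94%, 18.2%, 14.1% and 10.3% of all genes. The 1 of 9 in NIL at 12 h is thus near the share of all genes. Of the block calls 2 were rises in NIL at 36 h (Gata3 and Otx2), 1 in NIP at 12 h and 1 in NIP at 36 h (both Gata2), and the others were falls.

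**Figure D3:**
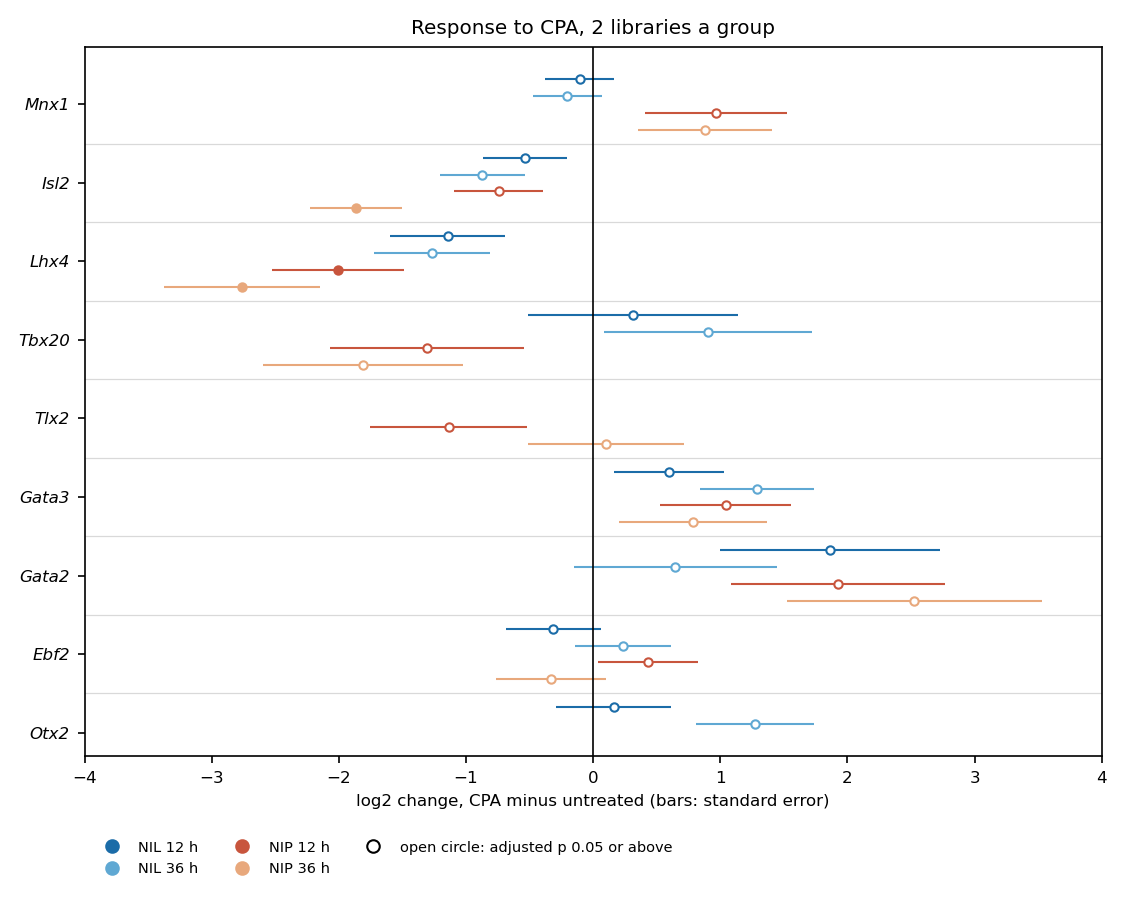
Log2 difference between CPA-treated and untreated libraries for each gene (x axis, CPA minus untreated; bars are standard errors, 2 libraries a group) in NIL and NIP at 12 h and 36 h. Filled circles passed adjusted p 0.05 by edgeR: Lhx4 in NIP at both times (-2.01 and -2.76) and Isl2 in NIP at 36 h (-1.87); results where a group had 3 counts or fewer are left out.

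Lhx4 was below its untreated level in every CPA-treated library when libraries with the same number were set side by side. In NIP the untreated to CPA ratio of CPM was 4.37 and 3.53 at 12 h and 11.3 and 3.71 at 36 h for libraries 1 and 2, and in NIL it was 2.42 and 1.92 at 12 h and 1.98 and 3.46 at 36 h. Lhx4 fell by 2.01 ± 0.52 on the log2 scale in NIP at 12 h (edgeR adjusted p = 0.045) and fell by 2.76 ± 0.62 at 36 h (edgeR adjusted p = 0.0335). In NIL its log2 change was -1.14 ± 0.45 at 12 h (edgeR adjusted p = 0.258, or 0.00333 with the block) and -1.27 ± 0.46 at 36 h (edgeR adjusted p = 0.185, or 0.00139 with the block). The direction was the same in all 4 comparisons, while the call depended on the libraries. At 12 h in NIP the adjusted p was 0.0837 to 0.305 without any 1 of the 4 libraries, and at 36 h it was 0.293 without untreated library 1, 0.192 without CPA library 1 and 0.138 without CPA library 2. Without both libraries of high Rn45s, which include untreated NIP 36 h library 1, the Lhx4 change in NIP at 36 h was -2.02 (edgeR adjusted p = 0.186).

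Isl2 was likewise below its untreated level in all 8 same-numbered pairs. In NIP at 36 h the untreated to CPA ratio was 4.13 and 3.26, and Isl2 fell by 1.87 ± 0.36 on the log2 scale (edgeR adjusted p = 0.018). The other changes were -0.74 ± 0.35 in NIP at 12 h (edgeR adjusted p = 0.301), -0.54 ± 0.33 in NIL at 12 h and -0.87 ± 0.33 in NIL at 36 h (edgeR adjusted p = 0.21), which did not pass. The Isl2 adjusted p in NIP at 36 h was 0.0897 without untreated library 1, 0.132 without untreated library 2, 0.147 without CPA library 1 and 0.1 without both libraries of high Rn45s. Mnx1, the third spinal homeodomain gene, had log2 changes of -0.11 ± 0.27 and -0.20 ± 0.27 in NIL at 12 h and 36 h (edgeR adjusted p = 0.947 and 0.711). In NIP its changes of 0.97 ± 0.56 and 0.88 ± 0.53 rest on 7 and 12 counts at 12 h and on 8 and 18 counts at 36 h, untreated and with CPA. Lhx3, the NIL factor, had a log2 change of -0.11 ± 0.32 in NIL at 12 h (edgeR adjusted p = 0.96).

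Tbx20 went in different directions in the lines without passing the test in either. Its CPA to untreated ratio in NIL was 1.03 and 1.47 at 12 h and 2.11 and 1.71 at 36 h, whereas in NIP its untreated to CPA ratio was 2.36 and 2.88 at 12 h and 2.78 and 7.61 at 36 h. The log2 changes were 0.31 ± 0.82 and 0.91 ± 0.82 in NIL, and -1.31 ± 0.77 (edgeR adjusted p = 0.436) and -1.81 ± 0.79 (edgeR adjusted p = 0.325) in NIP. The difference between the lines in this response was -1.62 ± 1.12 at 12 h and -2.72 ± 1.13 at 36 h (unadjusted p = 0.0317, edgeR adjusted p = 1), so it did not pass either. Tlx2 in NIP had a log2 change of -1.13 ± 0.62 at 12 h (edgeR adjusted p = 0.388), and at 36 h its libraries went opposite ways, with a CPA to untreated ratio of 2.1 in library 1 and 0.56 in library 2.

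Gata3, Gata2 and Otx2 had higher mean levels with CPA in NIL at 36 h, and none passed by edgeR without the block. Gata3 had CPA to untreated ratios of 2.58 and 2.31 there, a log2 change of 1.29 ± 0.45 (edgeR adjusted p = 0.172, or 0.0286 with the block). Otx2 had ratios of 2.65 and 2.09, a log2 change of 1.27 ± 0.46 (edgeR adjusted p = 0.196, or 0.0193 with the block; DESeq2 adjusted p = 0.0296). The other Gata3 changes were 0.60 ± 0.43 in NIL at 12 h and 1.04 ± 0.52 and 0.78 ± 0.58 in NIP at 12 h and 36 h, and that of Otx2 in NIL at 12 h was 0.16 ± 0.45. Gata2 moved with CPA from 14 to 66 counts in NIL and from 15 to 51 counts in NIP at 12 h, log2 changes of 1.87 ± 0.86 (edgeR adjusted p = 0.367, or 0.0582 with the block) and 1.93 ± 0.84 (edgeR adjusted p = 0.257, or 0.0407 with the block). In NIL at 36 h the Gata2 groups overlapped, with a log2 change of 0.64 ± 0.80 (edgeR adjusted p = 0.692, or 0.304 with the block). In NIP at 36 h Gata2 was at 5 counts untreated and 33 with CPA, a log2 change of 2.53 ± 1.00 (edgeR adjusted p = 0.267, or 0.043 with the block). Otx2 in NIP had 0 counts untreated and 6 with CPA at 12 h, and 2 and 7 counts at 36 h, a ratio of 2.75 whose 95% counting interval was 0.523 to 27.1. Ebf2 in NIL was at 8.38 ± 2.27 CPM with CPA and 10.3 ± 4.27 CPM without at 12 h (mean ± SD, n = 2), and its groups overlapped at 36 h. The summed level of 10 pan-neuronal markers was 2340 to 7175 CPM in the 8 CPA-treated libraries and 5588 to 10880 CPM in the 8 untreated libraries of the same times, and its part in these changes was not tested.

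Whether the CPA response differed between NIL and NIP was tested directly. By edgeR 0 of 9 members passed at 12 h and 0 of 9 at 36 h, as did 0% of all tested genes, with 1 member at an unadjusted p under 0.05 at each time (2.36% and 4.40% of all genes) and 0 by DESeq2. The difference in the Lhx4 response at 36 h was -1.50 ± 0.76 and that of Isl2 -0.99 ± 0.49 on the log2 scale. The falls that passed in NIP alone are thus not shown to be particular to NIP.

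Untreated libraries at 12 h and 36 h were compared with 0 h, and they are also the controls of the CPA comparisons above. No member passed: the edgeR count was 0 of 9 for each line at each time, beside 0% of all genes at 12 h in both lines and 0.0270% in NIL and 1.29% in NIP at 36 h. At an unadjusted p under 0.05 there were 0 and 5 members in NIL at 12 h and 36 h (0.804% and 5.78% of all genes) and 1 and 2 in NIP (2.37% and 14.7%). By DESeq2 1 member passed in these 4 comparisons, Mnx1 in NIL at 36 h (adjusted p = 0.0376), beside 0% and 0.656% of all genes in NIL and 0.00676% and 4.33% in NIP. In NIL the log2 change from 0 h to 36 h was -0.63 ± 0.27 for Mnx1, -0.88 ± 0.33 for Isl2, -1.48 ± 0.44 for Gata3 (edgeR adjusted p = 0.441), -1.20 ± 0.38 for Ebf2 and -1.10 ± 0.46 for Otx2. These are the 5 genes with an unadjusted p under 0.05, and each had both 36 h libraries below both 0 h libraries. That separation adds nothing to the p, and its share over all genes was not computed. None of the changes passed by edgeR with adjustment. In NIP Isl2 had a change of 0.91 ± 0.35 (edgeR adjusted p = 0.243), Ebf2 of -0.92 ± 0.42 (edgeR adjusted p = 0.331) and Lhx4 of -0.86 ± 0.50 (edgeR adjusted p = 0.474, or 0.0428 with the block, under which it was the 1 member that passed there, beside 9.09% of all genes). With the block the 5 changes in NIL did not pass either (edgeR adjusted p 0.0645 to 0.234). The order of the 3 untreated times within a line was therefore not resolved by edgeR for these genes, apart from the Lhx4 call with the block. Isl2 had mean changes of opposite sign in the lines, with a difference of 1.79 ± 0.49 between them (unadjusted p = 0.00261, edgeR adjusted p = 0.41), which did not pass. In this test 0 of 9 members passed, with 1 at an unadjusted p under 0.05 (6.11% of all genes) and 0 by DESeq2.

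The libraries numbered 1 and 2 differed in markers of other cell types, and some members differed with them. In a model of group and replicate number, 2 of 9 members passed for the difference between the sets, beside 49.2% of all tested genes. Lhx4 was lower in set 2 by a log2 difference of -0.69 ± 0.11 (edgeR adjusted p = 0.000102) and Gata2 was higher by 0.87 ± 0.28 (edgeR adjusted p = 0.016). Mnx1 (0.01 ± 0.11), Isl2 (0.07 ± 0.15), Otx2 (-0.09 ± 0.20), Ebf2 (-0.34 ± 0.15, edgeR adjusted p = 0.0647) and Tbx20 (-0.72 ± 0.37, edgeR adjusted p = 0.127) did not pass. The model gives 1 value for both lines. For Tbx20 library 1 was above library 2 in every NIP group, but in NIL only at 12 h without CPA. Beside the members, 14 of 14 pluripotent stem cell markers were higher in set 2 (median 2.56), as were 10 of 10 proliferation markers (1.5) and 10 of 13 endoderm markers (1.92), while 9 of 10 pan-neuronal markers were lower (-0.45). The part of these markers in the member differences was not tested. Set side by side by line, the proliferation markers summed to 197 to 612 CPM in NIL and 30.0 to 164 CPM in NIP. The endoderm markers summed to 2882 to 32210 CPM in NIL and 432 to 8177 CPM in NIP, ranges that overlapped. At 0 h 0 of 10 proliferation markers and 0 of 13 endoderm markers passed between the lines by edgeR. With the block 10 and 4 passed, all lower in NIP.

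**Figure D4:**
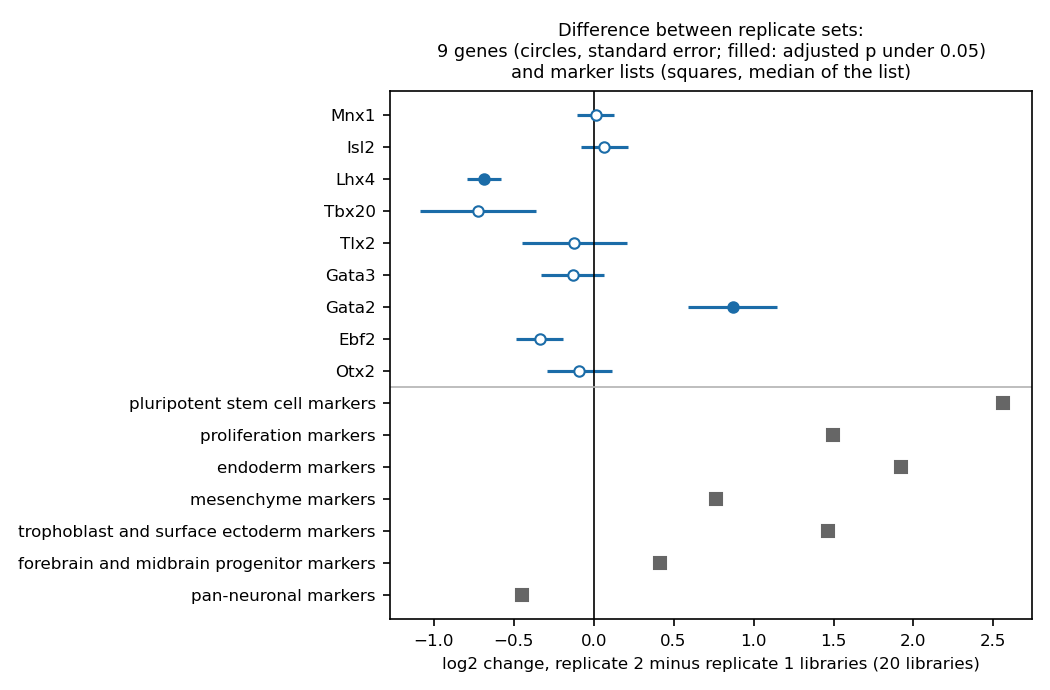
Log2 difference between libraries numbered 2 and libraries numbered 1 over all 20 libraries (x axis) for the 9 genes (circles with standard errors, filled where adjusted p was under 0.05) and the median of each marker list (squares). Lhx4 (-0.69) and Gata2 (0.87) passed, and the stem cell, endoderm and proliferation lists lie between 1.5 and 2.56.

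Other genes of these programmes were taken from lists of textbook roles. Of 27 other spinal motor neuron and ventral spinal factors 25 were tested, and at 0 h 6 were higher and 6 lower in NIP (median log2 difference -0.47; 7 and 8 with the block), led by Nkx6-1 (3.0 ± 0.32), a progenitor homeodomain factor, and the LIM-only cofactors Lmo4 (-1.95 ± 0.25) and Lmo1 (-1.75 ± 0.26). Of 22 other cranial, visceral motor and autonomic genes 19 were tested, with 5 higher and 2 lower (median 0.40; 5 and 5 with the block), including Rgs4 (5.74 ± 0.59), a regulator of G protein signals, and the vesicular monoamine transporter Slc18a2 (3.36 ± 0.45). Both directions occurred in each list, so neither moved as one. Of 15 genes of V2 interneurons, the spinal cells that use Gata2 and Gata3, 9 were tested, with 2 higher and 3 lower (median -1.64; 2 and 5 with the block). Among these Shox2 was higher (3.90 ± 0.37), the GABA-synthesising enzyme gene Gad1 lower (-4.26 ± 0.57) and Sox1 at 2.50 ± 0.76. Of 23 paralogs of the members 17 were tested, with 2 higher and 4 lower (median -1.22; 3 and 10 with the block), including Crx of the Otx family (-8.03 ± 0.89), Lhx2 (-5.48 ± 0.71) and Tlx3 (5.48 ± 1.04). Of 17 effector genes shared by motor neurons 16 were tested, with 4 higher and 5 lower (median -0.12; 5 and 7 with the block), including the intermediate filament gene Prph (3.23 ± 0.21) and the nicotinic receptor genes Chrnb4 (5.13 ± 0.41) and Chrna3 (4.61 ± 0.51). The median over all tested genes was -0.00054, and with the block 26.3% of all genes passed at 0 h, against 12.5% without it.

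The same lists under CPA are read against the 2.21% and 0.980% of all genes that passed in NIL at 12 h and 36 h and the 4.71% and 2.33% in NIP, or with the block 7.94%, 18.2%, 14.1% and 10.3%. Apart from Neurog2, the list genes named for CPA were chosen after their values were seen. Of the V2 interneuron genes 0 passed by edgeR in any of the 4 comparisons, with 0 to 1 at an unadjusted p under 0.05 and 0 by DESeq2, and with the block 3 were higher in NIL at 36 h. Of the paralogs 0 passed by edgeR, with 1 to 2 at an unadjusted p under 0.05 and 0 to 1 by DESeq2; with the block 1 was higher and 1 lower in NIL at 36 h and 1 lower in NIP at each time. Of the other spinal factors 0 passed in NIL at 12 h and 36 h (1 and 2 at an unadjusted p under 0.05, 0 by DESeq2), and with the block 2 were lower at 36 h. In NIP at 12 h 1 of them rose, Lmo4 (1.31 ± 0.24), and 2 fell, the POU factor Pou3f1 (-2.0 ± 0.35) and the cut homeobox gene Onecut3 (-1.37 ± 0.36), and at 36 h the same 2 genes fell (-1.65 ± 0.36 and -1.82 ± 0.37). With the block 3 were higher and 6 lower in NIP at 12 h, and 1 higher and 5 lower at 36 h. Of the other cranial and visceral genes 1 fell in NIL at 36 h, the receptor tyrosine kinase gene Ret (-1.36 ± 0.29), and 1 rose in NIP at 12 h, Hmx3. With the block 1 was higher and 3 lower in NIL at 12 h, 1 and 1 in NIL at 36 h, 2 and 3 in NIP at 12 h, and 1 and 0 in NIP at 36 h. Of the shared effector genes 3 fell in NIL at 12 h, the neurotrophin receptor gene Ngfr (-1.21 ± 0.22), the acetylcholinesterase gene Ache (-1.42 ± 0.28) and Prph (-0.83 ± 0.20). In NIL at 36 h 4 fell, Ngfr (-1.05 ± 0.22), Ret, which both lists hold, the vesicular acetylcholine transporter gene Slc18a3 (-1.68 ± 0.36) and Ache (-1.27 ± 0.28). In NIP at 12 h 2 fell, Ngfr (-1.09 ± 0.22) and Ache (-1.05 ± 0.27), and at 36 h 0 passed (7 at an unadjusted p under 0.05, 2 by DESeq2). With the block the effector genes that fell numbered 6 and 10 in NIL and 5 and 5 in NIP at 12 h and 36 h, of 16 tested. Neurog2, present in both factor sets, had log2 changes of 0.96 ± 0.22 in NIL (edgeR adjusted p = 0.0584, or 0.00583 with the block) and 0.91 ± 0.22 in NIP (edgeR adjusted p = 0.0489, or 0.00921 with the block) at 36 h. Isl1, also in both sets, changed in NIL by -0.65 ± 0.35 at 12 h (edgeR adjusted p = 0.463, or 0.0262 with the block). At 36 h in NIL its change was -0.55 ± 0.35 (edgeR adjusted p = 0.434, or 0.0294 with the block). In NIP the Isl1 changes were 0.04 ± 0.35 and 0.26 ± 0.35 at 12 h and 36 h, and those of Phox2a -1.34 ± 0.82 and -0.34 ± 0.81. None of these NIP changes passed, with or without the block.

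The genes whose pattern was most like each member's were found from the Pearson correlation of mean log2 CPM over the 10 groups, as a description that is governed mostly by the difference between the lines. The closest to Mnx1 were Mcf2 (r = 0.997) and the NIL factor Lhx3 (0.996), to Isl2 Slc10a4 (0.994) and Cux2 (0.992), and to Lhx4 Slit2 (0.988) and Nup133 (0.987). For Tlx2 they were Six4 (0.998) and Etv1 (0.997), and for Tbx20 Camkv (0.969) and Sox1 (0.960). For Otx2 they were Ncapd2 (0.996) and Lhx5 (0.995), for Ebf2 Nasp (0.985) and Mad1l1 (0.9845), for Gata3 Idh2 (0.986) and Metrn (0.986), and for Gata2 Klf9 (0.970) and Als2cl (0.965). The likeness did not always hold inside a line: over the 5 NIL groups the correlation of Mnx1 with Lhx3 was 0.175, whereas Isl2 and Slc10a4 had 0.934 in NIL and 0.927 in NIP. The correlation of Tlx2 with Six4 over the NIL groups was -0.705. Tlx2 held only 22 counts in the 10 NIL libraries, so that value cannot show whether their likeness held there. The groups share libraries numbered 1 and 2 and their depths, and no p is given.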

How the data were processed

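RNA of 20 libraries was depleted of ribosomal RNA and sequenced, per the labels' protocols. The authors deposited whole-number read counts per gene symbol; per the submitters' processing notes the tools were HTSeq 0.6.1p1, Picard, TopHat2 2.1.1 and Bowtie2 2.3.2 on GRCm38 (mm10). The strand setting and annotation release are not given in the sources used here, and without strand, reads of overlapping genes cannot be told apart. Reads that mapped to more than 1 place (18.2% to 52.6%) were not counted to genes.

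From the counts, genes were filtered with filterByExpr by group and scaled by TMM, and tested with edgeR 4.0.16 (R 4.3.3) by a robust quasi-likelihood fit with 1 mean for each group, leaving 10 residual degrees of freedom. The p-values were adjusted by Benjamini-Hochberg over 14792 genes within each comparison, threshold 0.05. The biological coefficient of variation was 27.5%. Libraries of a group differed by more than counting noise in all 10 groups. Where a group held 0 counts a fold is taken against 3 counts over that group, and where it held 1 to 3 the ratio has an exact 95% counting interval.

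The replicate numbers come from the titles. For every 1 of the 45 pairs of groups, the differences between libraries 1 and 2 were correlated across genes (r 0.243 to 0.763, median 0.467), so the numbers pair the libraries, and the fit with the number as a block (coefficient of variation 15.7%, 9 residual degrees of freedom) is given beside the results of members and lists where it changed a call. Alternatives were DESeq2 1.42.0, RLE scaling, no filter, no Rn45s, the compared groups alone, and leaving out libraries. The members, lists and alternatives were chosen with earlier results of these data known. Named genes are the members, the 4 factors that name the lines, the 3 genes of each list with the smallest p between the lines at 0 h and, for each member, the 2 genes of at least 5 CPM most like it (0.5 CPM added before logs). A gene that this rule picks is not reported here. The list genes named for CPA, apart from Neurog2, were chosen after their values were seen. Coordinates are from GENCODE M21, promoter sequences from RefSeq (GRCm38.p6).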

Additional observations from a re-analysis of the deposited data

How the results depend on the processing

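Of the 43 called member differences, 0 changed direction under any alternative run, and 32 of the 38 called line differences kept their call under every one. Of the 110 differences that were not called, 40 changed sign under some alternative. With the replicate number as a block, the count of members called for CPA was 1 in NIL at 12 h and 3 at 36 h (0 and 0 without it), 2 in NIP at 12 h (1 without it), and for 36 h against 0 h in NIP it was 1 (0 without it). The block changed no other member count by over 1.5 times. With DESeq2 the count was 1 for CPA in NIL at 36 h and 1 for 36 h against 0 h in NIL. Without the filter on low counts it was 0 for CPA in NIP at 12 h and 1 at 36 h, where 559 and 319 of all genes passed. With the compared groups alone it was 2 and 0, where 956 and 3 of all genes passed. In the fit reported above 696 and 344 of all genes passed in these 2 comparisons. Without both libraries of high Rn45s the log2 changes with CPA in NIP at 36 h were -2.02 for Isl2 and -2.02 for Lhx4. Over all genes, too, fewer passed for CPA in NIP in the fits that left out libraries. Leaving out 1 library gave 0 to 0 in NIP at 12 h and 0 to 1 at 36 h, with the lone library assumed to vary like the other groups. The genes behind the gains are Lhx4, Gata3 and Otx2 in NIL and Gata2 and Lhx4 in NIP with the block, Otx2 and Mnx1 with DESeq2, and Tlx2 in NIP at 12 h with the compared groups alone (adjusted p = 0.0293); those behind the losses are Lhx4 and Isl2. The cause of each shift was not tested.

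Some uncalled values changed sign. Gata2 between the lines at 12 h ran from -1.45 to 0.28 with 1 library left out (0.28 without NIL library 2), and Tbx20 between the lines at 36 h with CPA from -1.37 (without NIP library 1) to 1.04. The Mnx1 difference between the sets was -0.00979 without the filter, and that of Otx2 was 0.0212 by DESeq2 and 0.0652 without both libraries of high Rn45s. RLE scaling and leaving out Rn45s changed no count of members. Depth limits Mnx1 and Otx2 in NIP, Tlx2 in NIL and Gata2 in both lines, where 3 counts are 0.0956 to 0.385 CPM.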
